A study of Mus musculus with 4 samples.

Results

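Summits of RNA polymerase II (Pol II) peaks that lay 100 to 1000 bp upstream of a protein-coding transcription start site (TSS), the side on which an antisense transcript would run, made up 6435 of the 389754 summits in 4 libraries of mouse brain endothelial cells (ECs). A summit is the base of a peak with the highest fragment coverage. Each summit was assigned to the nearest start of a protein-coding transcript in the GENCODE M21 annotation of mm10, and its side was read from the strand of that gene. Summits within 1000 bp of a TSS of any other protein-coding gene were left out, so the rule used position alone and no measured height. Upstream summits numbered 1154 of 78851 in old WT Cre replicate 1 (O1), 944 of 39674 in replicate 2 (O2), 504 of 35638 in the first young EC-K4KO replicate (Y1) and 3833 of 235591 in its replicate 2 (Y2). They were compared with the 17008 summits 0 to 1000 bp downstream of a TSS, chosen in the same way.

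Old WT Cre mice (20 to 23 mo) carried CDH5-CreERT2 alone, and young EC-K4KO mice (4 to 6 mo) carried CDH5-CreERT2 with floxed Klf4, so that tamoxifen given at 8 wk removed Klf4 from cells in which the Cdh5 promoter is active. Both groups carried the Cre transgene, received tamoxifen and were on the C57BL/6J background. Genotype and age differed together, so their parts in any difference between the groups cannot be told apart. Each group had 2 libraries, each prepared according to the methods from 200000 sorted cells with chromatin cut by micrococcal nuclease. The methods call the replicates biological, but the labels do not say whether each was a separate animal, so the p-values measure only the spread between these libraries, which may be partly technical.

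Pol II starts transcription at many mammalian promoters in both directions. The sense polymerase pauses a short way into the gene, and a separate initiation complex at the upstream edge of the nucleosome-depleted region sends a polymerase the other way, to make a short and quickly degraded upstream antisense RNA. This divergent transcription is best known at promoters within CpG islands. ChIP of Pol II carries no strand, so a summit upstream of a TSS can hold polymerase of either direction, of an unannotated start or of a neighbouring noncoding gene.

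The sequences at the summits came in different kinds, shown by 200-bp windows of the reference (mm10, coordinates of the plus strand, letters 5′ to 3′ on the strand of the gene). The first set holds windows of genes that had an upstream summit in all 4 libraries and whose windows occur once in the assembled genome. Each is centred on the summit of 1 library, O1 for 4931408C20Rik and Setd4 and Y2 for Cbll1 and Sox6, since the summits differed in place between libraries. They are the first 4 such genes in the order of their weakest q-value, with CG dinucleotides in capitals. Windows that overlapped an annotated exon were passed over. The one shown had the best q-value of the libraries left, so it need not be the strongest summit of the gene.
4931408C20Rik, chr1:26687461-26687660, minus strand: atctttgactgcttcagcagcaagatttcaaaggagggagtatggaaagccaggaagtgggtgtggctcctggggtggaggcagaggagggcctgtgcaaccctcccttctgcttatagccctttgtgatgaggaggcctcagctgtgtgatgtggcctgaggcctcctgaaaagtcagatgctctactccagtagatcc
Cbll1, chr12:31499799-31499998, minus strand: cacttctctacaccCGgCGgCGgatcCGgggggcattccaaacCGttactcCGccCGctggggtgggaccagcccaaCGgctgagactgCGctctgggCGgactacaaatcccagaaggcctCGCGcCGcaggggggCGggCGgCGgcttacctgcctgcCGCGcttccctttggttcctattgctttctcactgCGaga
Sox6, chr7:116031726-116031925, minus strand: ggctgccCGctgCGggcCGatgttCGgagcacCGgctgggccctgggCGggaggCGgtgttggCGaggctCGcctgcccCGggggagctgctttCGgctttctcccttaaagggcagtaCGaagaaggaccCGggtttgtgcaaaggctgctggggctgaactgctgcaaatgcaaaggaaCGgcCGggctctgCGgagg
Setd4, chr16:93603929-93604128, minus strand: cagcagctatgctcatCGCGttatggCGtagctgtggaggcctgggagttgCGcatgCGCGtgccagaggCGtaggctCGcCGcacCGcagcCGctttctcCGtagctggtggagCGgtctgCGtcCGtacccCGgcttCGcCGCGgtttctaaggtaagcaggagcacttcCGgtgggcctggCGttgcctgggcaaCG
The windows of Cbll1, Sox6 and Setd4 held 19, 16 and 22 CG dinucleotides in 200 bases, and the window of 4931408C20Rik held 0. The second set shows 2 members from a run of predicted genes at the start of the chromosome 9 assembly, which held the members with the most fragments, beside the window with the highest fold enrichment among members that occur once, upstream of Oasl1. The exon rule passed over Gm10722, the gene of the run with the highest pileup. Capitals mark bases in 13-base words that the Oasl1 window shares, on either strand, with the windows of the run. In the Oasl1 line the words may lie in any of the 32 windows of the run, 8 genes in 4 libraries, and in the other lines they are those of the Oasl1 window.
Gm10717, chr9:3029671-3029870, plus strand: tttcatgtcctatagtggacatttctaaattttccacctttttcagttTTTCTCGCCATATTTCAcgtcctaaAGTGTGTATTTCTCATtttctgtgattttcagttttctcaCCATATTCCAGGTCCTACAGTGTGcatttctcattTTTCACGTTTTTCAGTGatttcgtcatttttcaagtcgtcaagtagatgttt
Gm10719, chr9:3018474-3018673, plus strand: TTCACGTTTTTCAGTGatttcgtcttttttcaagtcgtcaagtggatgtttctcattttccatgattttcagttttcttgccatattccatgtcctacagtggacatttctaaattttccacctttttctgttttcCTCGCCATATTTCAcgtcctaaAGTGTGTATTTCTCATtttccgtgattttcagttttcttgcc
Oasl1, chr5:114922397-114922596, plus strand: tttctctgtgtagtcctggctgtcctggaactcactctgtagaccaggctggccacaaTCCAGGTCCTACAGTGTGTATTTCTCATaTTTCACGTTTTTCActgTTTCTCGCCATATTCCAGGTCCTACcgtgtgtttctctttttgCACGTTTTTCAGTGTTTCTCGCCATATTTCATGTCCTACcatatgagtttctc
The repeated letters of the run are those of the mouse major satellite, the tandem repeat of pericentromeric heterochromatin. In the Oasl1 window 106 of the 200 bases fell in shared words.

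Depth and list length differed between the libraries. The peak caller counted 22705175 to 65734178 fragments per library, and Y2, with the fewest fragments, had the longest list. The smallest pileup of a called peak, its height in fragments, was 7 to 13. The labelled cell type was checked with 8 endothelial markers, of which 3 had a summit within 1000 bp of a TSS in any library; Erg, Esam, Pecam1, Tek and Tie1 had none. Over all protein-coding genes 65.9% had such a summit in any library, and 20.1, 20.4, 8.32 and 58.1% in O1, O2, Y1 and Y2. The endothelial markers numbered 2, 1, 0 and 2 in these libraries. The count in any library was 3 of 4 for neuron, 2 of 4 for astrocyte, 3 of 4 for oligodendrocyte, 4 of 4 for microglia and 2 of 4 for mural markers. In O1, O2, Y1 and Y2 there were 0, 1, 0 and 3 neuron markers and 1, 0, 0 and 1 astrocyte markers. Oligodendrocyte markers numbered 0, 0, 1 and 2, microglia markers 1, 0, 0 and 4, and mural markers 1, 0, 1 and 2. The part of other cells in the results below was not tested.

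Upstream summits were the smaller share of the summits at TSS in every library. Of all summits on the 2 sides, 28.0% lay upstream in O1 (95% exact Clopper-Pearson interval 26.7 to 29.4), 23.5% in O2 (22.2 to 24.8), 33.3% in Y1 (30.9 to 35.7) and 27.8% in Y2 (27.1 to 28.6). These intervals cover counting error only. O2 was lowest, Y1 highest, and the other replicate of each group lay in between with overlapping intervals. The mean share was 25.7% ± 3.22 (SD, n = 2) in old WT Cre and 30.5% ± 3.87 (SD, n = 2) in young EC-K4KO. The difference was 4.79 percentage points, and the groups overlapped, with O1 above Y2 (two-sided exact permutation test, p = 0.667, adjusted p = 0.889 over 4 tests between groups, smallest possible p 0.3333, so the design cannot show a difference at 0.05). It was 2.05 points without Y1 and 7.52 without Y2, 2.28 with lists of equal length and 2.76 at q of at most 1e-05.

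Summits per base told the same of the windows themselves. After the exclusion of bases near other genes, 22.5 Mb upstream and 25.9 Mb downstream could hold a summit. The upstream density was 51.3 summits per Mb in O1, against 114 downstream. It was 41.9 against 119 in O2, 22.4 against 39.0 in Y1 and 170 against 384 in Y2. The upstream density was thus 0.353 to 0.574 times the downstream density, a mean log2 ratio of -1.16 ± 0.29 (SD, n = 4), negative in 4 of 4 libraries (two-sided exact sign permutation test, p = 0.125, the smallest that 4 libraries allow, adjusted p = 0.25 over 4 such tests). The downstream window began at the TSS and the upstream one at 100 bp. With a downstream window of 100 to 1000 bp the mean log2 ratio was -1.02. Between groups the log2 ratio was 0.34 higher in young EC-K4KO, beside SDs of 0.24 and 0.26 within old WT Cre and young EC-K4KO (two-sided exact permutation test, p = 0.667, adjusted p = 0.889, again with 0.3333 as the smallest possible).

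**Figure D1:**
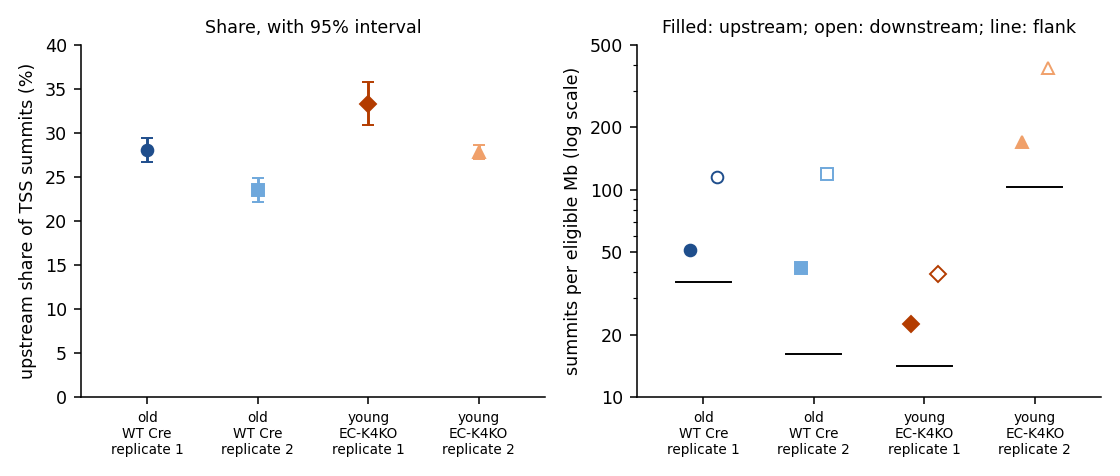
Left, the percent of TSS summits that lay 100 to 1000 bp upstream in each library, with 95% exact intervals; right, summits per eligible Mb on a log axis, upstream (filled), downstream (open) and 3000 to 10000 bp upstream of TSS (line). In each library the filled point lies above the line and below the open point, and the shares run from 23.5 to 33.3%.

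Much of the upstream window held summits at the density of DNA farther from the TSS. The flank, 3000 to 10000 bp upstream of TSS, carried 35.9, 16.1, 14.1 and 103 summits per Mb in O1, O2, Y1 and Y2. Upstream summits were 1.43, 2.60, 1.59 and 1.66 times as dense in the same order. A window at flank density would have held 70.0, 38.5, 62.8 and 60.4% of the members. Position alone cannot tell summits of this general density from summits tied to a promoter.

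The excess over the flank lay close to the TSS. At 100 to 249 bp upstream, the density was 2.41, 5.73, 3.18 and 3.38 times that of the flank in O1, O2, Y1 and Y2. At 250 to 499 bp it was 1.5, 3.18, 1.66 and 1.81 times, and at 500 to 1000 bp it was 1.07, 1.29, 1.05 and 1.02 times. On the downstream side at 100 to 249 bp the corresponding values were 5.86, 15.1, 5.25 and 5.91, and at 500 to 1000 bp they were 1.71, 3.29, 1.9 and 2.06. The outer stretch of the downstream side was thus still above its flank in all 4 libraries. O2 stood out with the steepest rise towards the TSS on both sides, and it also had the shortest median distance of its upstream summits, 310 bp, against 408.5 bp in O1 and 342.5 and 351 bp in Y1 and Y2.

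**Figure D2:**
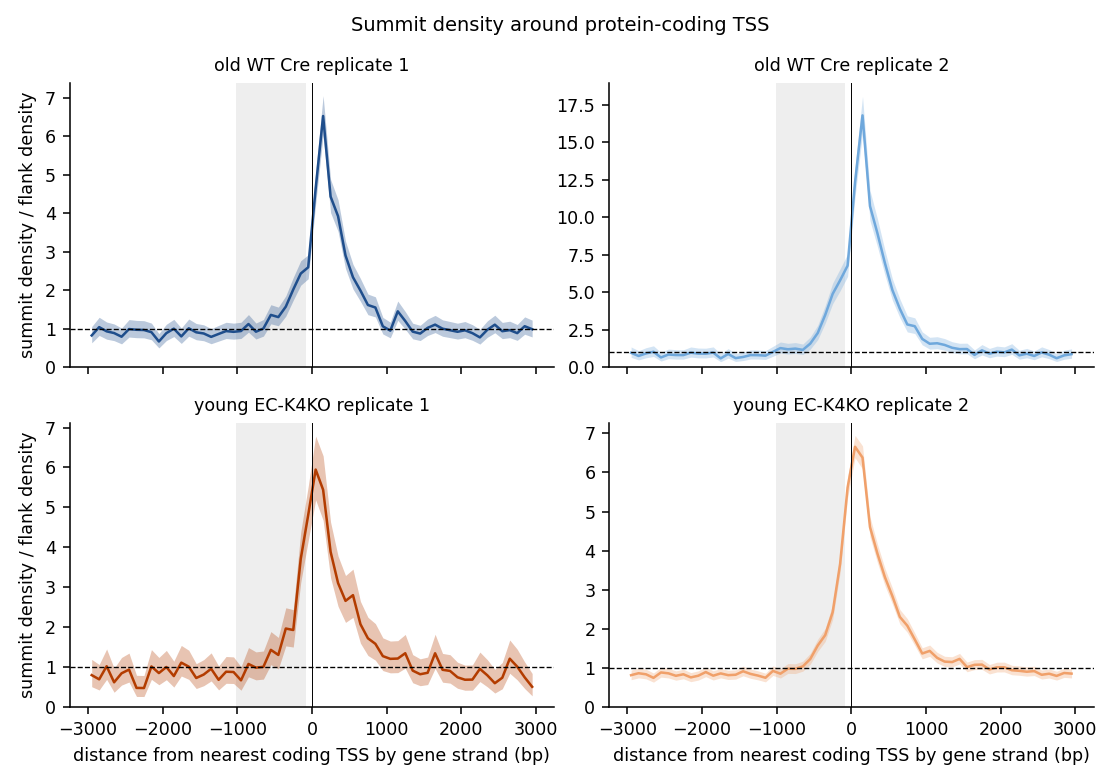
Summit density in 100-bp bins divided by the flank density of the same side, against distance from the nearest protein-coding TSS (negative is upstream), with bands for 95% Poisson intervals and the 100 to 1000 bp upstream window in grey; the vertical axes differ. Density climbs from flank level (dashed, 1) within the last 600 bp before the TSS in each library and stays above it for longer on the downstream side.

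No separate upstream summit class was seen in the profiles. Density was higher nearer the TSS, apart from small reversals between neighbouring 100-bp bins, and went on rising past the inner edge of the window, with 119, 119, 74 and 566 summits at 100 to 149 bp upstream and 124, 152, 99 and 696 at 51 to 99 bp, just outside it, in the same library order. At the outer edge, the last 50 bp inside the window held 47, 25, 11 and 106 summits and the next 50 bp held 41, 22, 15 and 121. Fragments were 151 to 174 bp long by the peak caller's estimate, about the length of DNA on a nucleosome. A peak over a TSS can also place its summit on the upstream side, and 10.7, 15.8, 14.3 and 18.8% of the upstream peaks reached over the TSS they were assigned to.

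Upstream and downstream peaks had similar median heights over their surroundings. Fold enrichment is the authors' ratio of a peak over the local background of its own library. Its median was 3.94 upstream and 3.83 downstream in O1, 4.85 on both sides in O2, 4.14 on both sides in Y1, and 5.05 and 5.40 in Y2. The mean difference of -0.014 on the log2 scale was smaller than its spread over libraries, 0.059 (SD, n = 4; two-sided exact sign permutation test, p = 1, adjusted p = 1), and it changed sign with the setting. A library's lowest callable height bounds all of these medians from below, so a difference among weaker peaks was not detectable here.

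Widths differed in direction between libraries. Upstream peaks had a median width of 225, 221, 211.5 and 223 bp and downstream peaks 252, 236, 200 and 265 bp, in the same library order. Y1 alone had wider peaks upstream. The mean difference was -18.1 ± 22.6 bp (SD, n = 4; two-sided exact sign permutation test, p = 0.25, adjusted p = 0.333).

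Most genes with an upstream summit had no called downstream summit in the same library. Both sides carried a summit at 188 genes in O1, 154 in O2, 39 in Y1 and 1673 in Y2. These were 16.7, 16.7, 7.94 and 47.2% of the genes with an upstream summit, beside 14, 14.5, 4.85 and 42.7% of all eligible genes with a downstream summit. The upstream peak had the higher fold enrichment at 88 of 188, 77 of 154, 17 of 39 and 790 of 1673 of these genes, so neither side was usually the stronger. A gene with only an upstream summit may still have had Pol II downstream below the calling limit.

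Few genes carried an upstream summit in more than 1 library. Of 20197 eligible genes, 1124 (5.57%) had such a summit in O1, 922 (4.57%) in O2, 491 (2.43%) in Y1 and 3543 (17.5%) in Y2. In at least 1 library there were 4749 genes (23.5%), of which 3653 appeared in 1 library, 892 in 2, 173 in 3 and 31 in all 4 (0.153%). O1 and O2 shared 193 genes, 17.2% of the first list and 20.9% of the second. Y1 and Y2 shared 252, 51.3% of the shorter list and 7.11% of the longer. The order of these counts turned with a stricter q-value, at 86 and 76 genes for q of at most 1e-05, and they were 101 and 126 with lists of equal length. Of pairs from different groups, O1 and Y1 shared 105 genes (9.34 and 21.4% of their lists), O2 and Y1 107 (11.6 and 21.8%), O2 and Y2 466 (50.5 and 13.2%) and O1 and Y2 474 (42.2 and 13.4%). Shares between the groups thus reached those within them. At shared genes the nearest upstream summits of a pair of libraries lay a median of 63 to 131 bp apart, and 70.0 to 82.4% of the shared genes had upstream peaks that overlapped.

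The 31 genes found in all 4 libraries were of 2 kinds. In 15 of them the 200 bp around the summit occurred more than once in the genome in each library, by a median count of at least 2 for its 31-base words, and in the other 16 they occurred once. In the order of the weakest of their 4 q-values, 14 of the first 15 were repeated, and all of the first 10. The best summit by q-value was taken in each library, and its distance from its nearest TSS was compared between libraries. These distances lay within 50 bp of each other at 11 of the 15 repeated genes. They did so at 0 of the 16 single-copy genes, where their median spread was 282.5 bp. At 14 of those 16 the best summits had the same TSS in all 4 libraries, and at the others the positions lay farther apart than the distances. Since 6 and 4 of these genes had several upstream summits in a library, the closest choice was also taken, and it gave 12 of 15 and 0 of 16, with a median spread of 25 and 261 bp.

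**Figure D3:**
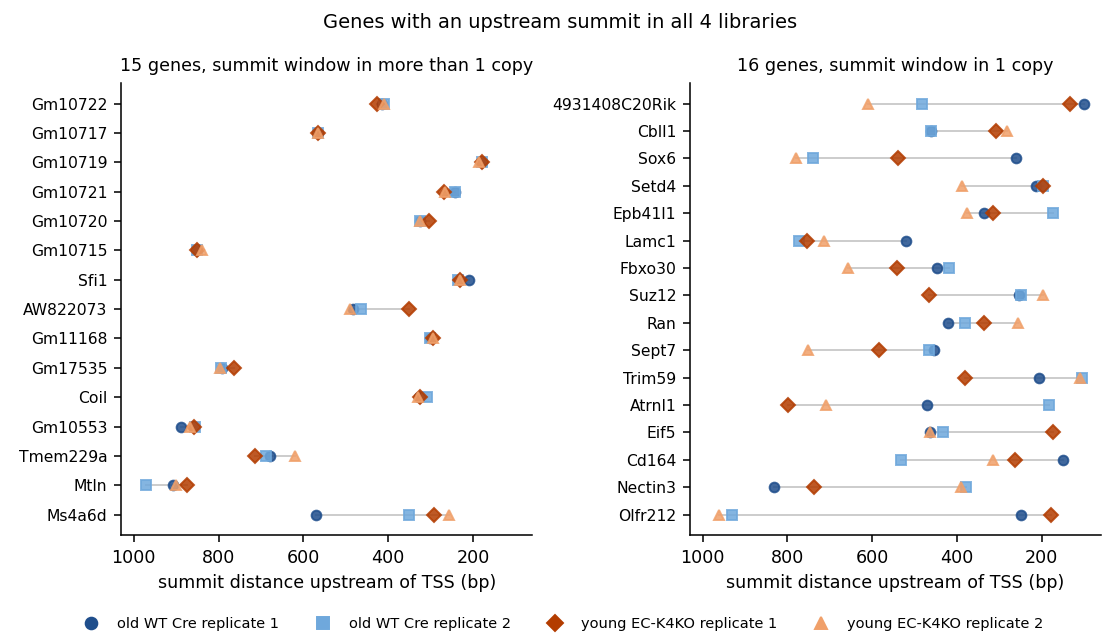
Distance of the best upstream summit by q-value from its TSS (bp, horizontal axis, TSS to the right) in each of the 4 libraries for the 31 genes with an upstream summit in all 4, split by whether the 200-bp summit window occurs more than once (15 genes) or once (16 genes) in the genome and ordered by the weakest q-value. Symbols coincide at most repeated genes and spread over a median of 282.5 bp at the single-copy ones.

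The signal with the most fragments came from 8 predicted genes in a run on chromosome 9, with summits between 3000496 and 3036037: Gm10722, Gm10717, Gm10719, Gm10721, Gm10720, Gm10715, Gm11168 and Gm17535. At Gm10722 the pileup was 131550, 51862, 17444 and 5741 fragments in O1, O2, Y1 and Y2, with fold enrichments of 13.6, 13, 15.8 and 17.1. Its summit lay 410 to 426 bp upstream of the TSS in all 4 libraries. The best summit by q-value of Gm10717 lay 565 or 566 bp upstream in all 4, and that of Gm10719 179 bp upstream in 3 and 185 bp in Y2. Gm10717 had further upstream summits, 3 in all in 3 libraries and 2 in Y1, and Gm10719 had 2 in each library. The other repeated genes named by the rule were Sfi1, which encodes a centrin-binding centrosome protein, AW822073, Coil, which encodes coilin of Cajal bodies, Gm10553, Tmem229a, and Mtln, which encodes a mitochondrial micropeptide. At Coil the pileups were 102, 40, 74 and 42 fragments at 309 to 329 bp upstream. Ms4a6d, later in the order, was the last of the 15.

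Members in repeated DNA were few but took the greatest heights. They were 13, 7.94, 12.3 and 6.91% of the upstream summits, against 6.98, 5.59, 12.4 and 5.54% of the downstream summits and 9.08% of windows 375 bp upstream of all eligible TSS. Among the 20 upstream summits with the most fragments in a library, 19, 19, 16 and 17 were repeated. The highest pileup of a single-copy member was 104, 48, 198 and 140 fragments in the 4 libraries. A window was called satellite-like when it held at least 20 of the 13-base words of the chromosome 9 run. In O1, O2, Y1 and Y2, 12, 12, 12 and 13 upstream summits were satellite-like, 1.04, 1.27, 2.38 and 0.339% of members. Downstream there were 14, 14, 12 and 13, or 0.472, 0.455, 1.19 and 0.131%. All of the upstream ones were among the 20 highest. The words came from upstream summits of the run, which was singled out for its pileups. The upstream count and this place among the highest therefore restate that choice. These word counts were chosen after the values were seen.

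The 16 single-copy genes carried modest peaks, mostly at GC-rich sites. At q of at most 1e-05, 0 of the 16 kept an upstream summit in all 4 libraries, 3 kept one in 3, 10 in 2 and 3 in 1, while 13 of the 15 repeated genes kept theirs in all 4. Their pileups were 10 to 104 fragments and their fold enrichments 3.19 to 11.7. GC content was 39.0 to 76.5% with a median of 64.5%. Cbll1, which encodes an E3 ubiquitin ligase of the m6A writer complex, had summits 462 bp upstream in O1 and O2 and 307 and 283 bp upstream in Y1 and Y2, with fold enrichments of 5.92, 4.35, 4.44 and 5.80. Lamc1, which encodes the laminin gamma chain of the vascular basement membrane, had them at 520, 773, 753 and 713 bp, with fold enrichments of 3.38, 6.63, 4.73 and 6.25. Suz12, a subunit of Polycomb repressive complex PRC2, had them at 254, 249, 465 and 196 bp, with 3.57, 6.34, 4.14 and 7.72. For these genes neither group was consistently higher, and Cbll1 was highest in an old library while Suz12 was highest in a young one.

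Other members of the 16 differ in function, and no shared theme was tested. Ran, the GTPase of nuclear transport, had summits 420, 381, 337 and 255 bp upstream. Eif5, a translation initiation factor, had them at 463, 434, 174 and 463 bp, and Sept7, a septin, at 453, 466, 584 and 751 bp. The 16 also held Setd4, a SET-domain methyltransferase, Epb41l1, a membrane skeleton protein, Nectin3, an adhesion molecule, Cd164, a sialomucin, Fbxo30, Trim59, Atrnl1, Sox6, the odorant receptor gene Olfr212 and 4931408C20Rik. A downstream summit accompanied the upstream one in 14 of the 64 combinations of gene and library, of which 9 were in Y2. At 15 of the 16 genes the 4 libraries had an upstream summit of the same TSS, and Epb41l1 was the exception. At 7 genes each upstream peak overlapped a peak of every other library.

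4931408C20Rik had the highest fold enrichment of the single-copy set. Its pileup was 104 fragments in O1 and 74 in Y1, 101 and 134 bp upstream, and 12 and 37 fragments in the other replicates, 482 and 609 bp upstream. O1 and Y1 each had a second upstream summit, 574 and 543 bp from the TSS with 53 fragments in both, so all 4 libraries had a summit 482 to 609 bp upstream. The window at its strongest summit is the one without a CG dinucleotide shown above.

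Genes seen in a single group were fewer than those seen in single libraries. An upstream summit in O1 and O2 but in neither Y1 nor Y2 was present at 74 genes (0.366% of 20197 eligible), and the reverse at 136 (0.673%). The lists behind these counts were unequal in length, and Y2 held 17.5% of eligible genes. In old WT Cre the first 5 by the weaker q-value were Duxf3, Fmn1, Ncoa4, Add1 and Stt3a. Duxf3 had a window of 2 copies, with a peak of 1 young EC-K4KO library over the same bases, and the O1 window of Add1 had 13 copies. Fmn1, a formin of the actin cytoskeleton, had summits 260 and 308 bp upstream with fold enrichments of 5.26 and 8.58, but a peak of 1 young EC-K4KO library overlapped each of them. Ncoa4, the receptor for ferritin breakdown, had summits 117 and 185 bp upstream with fold enrichments of 5.26 and 7.08, and no young EC-K4KO peak overlapped them. With the outermost TSS of each gene alone, Ncoa4 had an upstream summit in 0 libraries. Stt3a, of the oligosaccharyltransferase, had 700 and 611 bp and 6.20 and 6.71, also with no overlapping young EC-K4KO peak.

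In young EC-K4KO the first 5 were Oasl1, mt-Nd1, Zfp991, Tcf4 and Mapk9. Oasl1, an interferon-induced gene of the oligoadenylate synthetase family, had the highest fold enrichment of any upstream summit in replicate 1, 25.3, and 18.4 in replicate 2, with pileups of 198 and 75 fragments. Its summits lay 743 and 742 bp upstream, 1 bp apart, in peaks 161 and 159 bp wide, and no old WT Cre peak overlapped them. The Oasl1 window occurs once in the assembly but was satellite-like by 31 shared words, and it was the only single-copy member of the 4 libraries with that property. Its summit lay inside the annotated noncoding gene Gm13822, which runs antisense to Oasl1. Whether fragments of the satellite were placed there was not tested. The mt-Nd1 summits were mitochondrial, where genes are read from a shared transcript and Pol II is not the polymerase. The Zfp991 window occurred in 5 copies, and peaks of all 3 other libraries overlapped its Y1 peak. The Tcf4 summits belonged to different TSS, 122 and 434 bp upstream, and peaks of 2 other libraries, at least 1 of them old WT Cre, overlapped the Y1 peak. With the outermost TSS of each gene alone, Tcf4 had an upstream summit in 0 libraries. Mapk9, which encodes the stress kinase JNK2, had summits 275 and 167 bp upstream with fold enrichments of 5.94 and 6.27, and the Y2 peak there was 1337 bp wide and also overlapped a peak of 1 old WT Cre library.

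Genes with an upstream summit had an annotated noncoding TSS on the opposite strand more often than genes with a downstream summit alone. Within 1000 bp upstream of the coding TSS, such a noncoding start was present at 8.36, 11.7, 11.6 and 9.14% of the genes with an upstream summit in O1, O2, Y1 and Y2. For genes with a downstream summit alone the shares were 7.21, 7.19, 7.87 and 5.53%, for genes with neither 4.35, 4.19, 4.63 and 3.0%, and over all eligible genes 4.95% (999 genes). The difference between the first and second kind was 3.26 ± 1.46 percentage points (SD, n = 4), positive in 4 of 4 libraries (two-sided exact sign permutation test, p = 0.125, the smallest that 4 libraries allow, adjusted p = 0.25). O1 had the smallest difference, 1.16 points. These noncoding starts are a minority, so most upstream summits lay at genes with no annotated antisense partner.

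**Figure D4:**
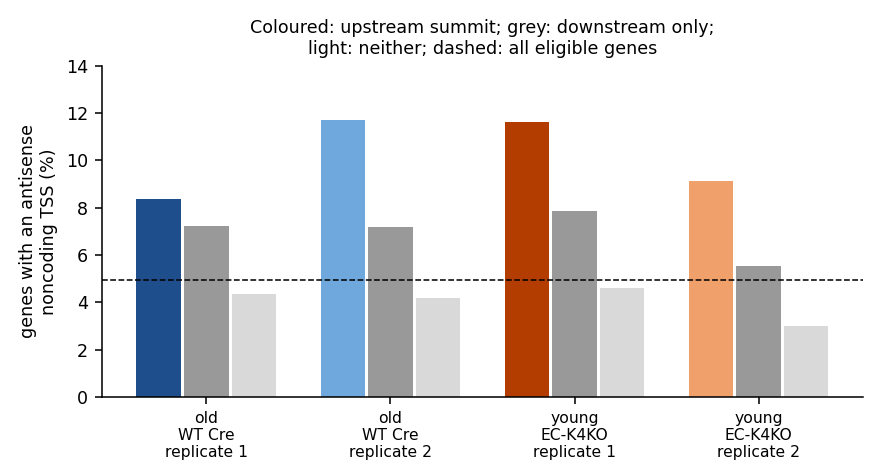
Percent of genes with an annotated noncoding TSS on the opposite strand 0 to 1000 bp upstream of a coding TSS, for genes with an upstream summit (coloured), with a downstream summit alone (grey) and with neither (light) in each library; the dashed line is the 4.95% of all eligible genes. The coloured bar is the tallest in each of the 4 libraries.

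Genes seen in more libraries had such a partner more often. The share was 7.91% of the 3653 genes in 1 library, 11.9% of the 1096 in at least 2 and 15.2% of the 204 in at least 3, which is 31 genes. The partner did not always lie at the TSS of the summit, and at 8 of the 31 genes a summit lay more than 1000 bp from the nearest such start, as at Kifc3, where the distances were 29503, 29533 and 29962 bp in O1, O2 and Y2. Over all genes with a partner, 9, 10, 7 and 49 of 97, 112, 60 and 361 upstream summits lay that far. Some of the 31 are given here by the summit closest to the partner in each library, chosen after their values were seen. The upstream summits of Efnb2, the arterial marker ephrin-B2, lay 267, 238 and 173 bp from the start of 4921522P10Rik in the 3 libraries that had them. Those of Mcam, an EC adhesion molecule, lay 78, 282 and 249 bp from the start of Gm10687, those of Lef1, a transcription factor of Wnt signalling, 135, 198 and 426 bp from that of Gm43352, and those of Fn1, which encodes fibronectin, 531, 397 and 487 bp from that of Apol7d. Fbxo30, Sox6 and Gm10719 of the chromosome 9 run had such a partner and summits in all 4 libraries. The closest summits of Fbxo30 and Sox6 lay 338, 309, 432 and 549 bp from the start of 4930432B10Rik and 672, 193, 684 and 153 bp from that of Sox6os. In Y1 the Sox6 summit with the better q-value was another one, at a different TSS and more than 1000 bp from that start. Over all members, 3.73, 7.31, 7.14 and 5.50% lay within 300 bp of such a start.

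Most upstream summits lay outside annotated genes. In the 4 libraries 55.9, 56.3, 59.5 and 57.4% lay in no gene, 10.9, 11.7, 13.1 and 10.3% in a noncoding gene, 5.20, 5.40, 4.96 and 5.69% in another protein-coding gene, and 28.0, 26.7, 22.4 and 26.6% within the annotated extent of the gene itself. The outermost TSS of the gene was the nearest start for 80.2 to 83.2% of members.

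Upstream summits lay in GC-rich sequence. At 100 to 249 bp upstream, the median GC content of the 200-bp windows was 62.0, 65.0, 64.5 and 64.5% in the 4 libraries, against 50.5% in windows 175 bp upstream of all eligible TSS. The ratio of observed to expected CpG was 0.627, 0.729, 0.744 and 0.713 against 0.337, and it exceeded 0.6, a usual bound for CpG islands, in 54.5, 73.2, 70.6 and 63.7% of members against 27.9%. At 500 to 1000 bp, where summit density was near that of the flank, GC content was 54.5, 59.0, 55.0 and 55.5% against 44.5%. Downstream summits at 100 to 249 bp had a median GC of 66.5, 67.5, 61.5 and 66.5% against 56.5%. GC content thus stood above its own background at each distance and on both sides, and the effect of base composition on amplification, digestion or alignment was not tested.

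**Figure D5:**
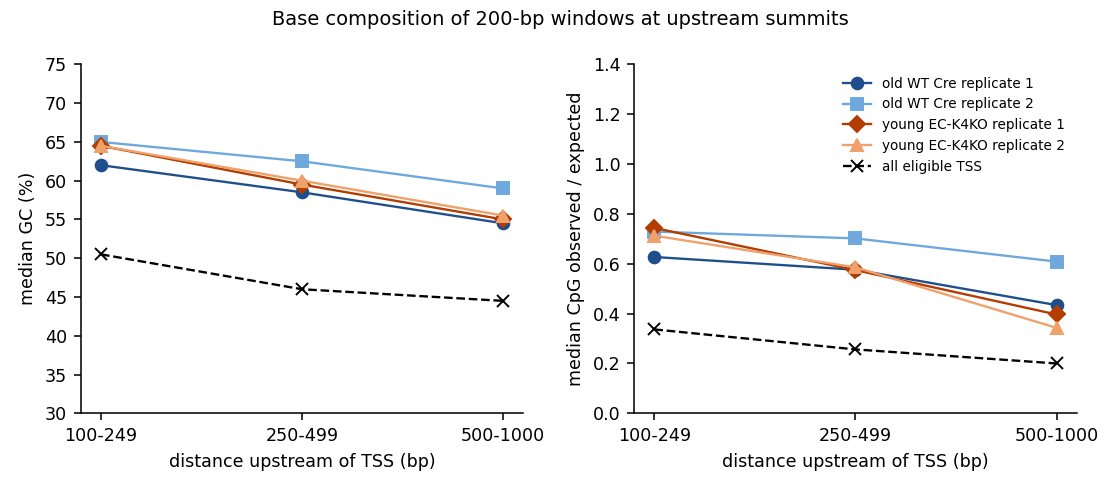
Median GC percent (left) and median ratio of observed to expected CpG (right) of 200-bp windows at upstream summits in 3 distance bins from the TSS, by library, with windows at the middle of each bin for all eligible TSS (dashed). Each library lies above the dashed line in each bin, by 11.5 to 14.5 percentage points of GC in the bin nearest the TSS.

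Letters of promoter motifs followed the same division. Motifs were searched on both strands of the 200-bp windows. At 100 to 249 bp upstream, GGGCGG, the letters of the Sp and KLF family box, was found in 34.1, 47.3, 49.7 and 49.1% of members against 21.5% of windows at all eligible TSS. CCGGAAG, letters of ETS sites, was found in 5.25, 6.83, 9.60 and 6.90% against 2.86%, and the NRF1 motif in 4.08, 6.28, 9.60 and 7.70% against 1.48%. Motifs without a CG went the other way. TATAAA was found in 2.92, 1.37, 2.26 and 1.96% against 9.60%, and CCAAT in 18.4, 20.2, 20.9 and 23.9% against 26.6%. TGACGTCA, the CRE palindrome, was found in 0.583, 1.09, 1.69 and 1.38% against 0.540%. In every case the members differed from all TSS in GC content as well, so these shares cannot be read apart from base composition. On the antisense strand AATAAA, the poly(A) signal, was found in 1.46, 1.09, 3.39 and 1.53% against 8.80%, and GGTAAG, the letters of a 5′ splice site, in 1.17, 1.09, 0.565 and 1.31% against 2.45%. Downstream summits at 100 to 249 bp leaned the same way for these 3 motifs. GGGCGG was found there in 37.9, 41.6, 34.5 and 38.8% against 24.0%. Antisense AATAAA was found in 1.07, 1.44, 1.53 and 1.19% against 6.64%, and GGTAAG in 2.37, 1.55, 1.53 and 1.39% against 2.41%.

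Of a list of 27 endothelial genes, 10 had an upstream summit in any library, beside 23.5% of all eligible genes. The share of the list was above that of eligible genes in each library, on counts too small to set the list apart. The counts were 4, 4, 2 and 6 in the 4 libraries, or 14.8, 14.8, 7.41 and 22.2% beside 5.57, 4.57, 2.43 and 17.5% of eligible genes. Ets1, an ETS transcription factor, had upstream summits in 3 libraries, at 228 bp in O1, 121 bp in Y1 and 232 bp in Y2, with fold enrichments of 3.0, 5.0 and 7.95. Lef1 had them in 3 libraries, at 572 bp in O1, 509 bp in O2 and 281 bp in Y2. Flt1, the decoy VEGF receptor VEGFR1, had them only in O1 and O2, at 538 and 455 bp with fold enrichments of 3.91 and 4.96, while Kdr, the signalling receptor VEGFR2, had them in O2 and Y2, at 252 and 158 bp. Differences between groups were not tested for single genes.

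The other endothelial members were seen in 1 library each. These were Cdh5, whose window 849 bp upstream was repeated about 759 times by its words, Sox18 at 122 bp, Fli1 at 896 bp, Eng at 165 bp, Slco1c1 at 124 bp and Klf4. Klf4 itself, the deleted gene, had an upstream summit only in Y1, 995 bp from the TSS with a fold enrichment of 4.20 and a pileup of 15 fragments, and no downstream summit in any library. This summit does not measure the deletion. Of 9 eligible genes of a stress and senescence list, 4 had an upstream summit, all in Y2 alone, where 17.5% of all eligible genes had one: Slc16a1, a lactate transporter, at 530 bp, Cdkn1a, which encodes p21, at 939 bp, Cdkn2a, the locus of p16 and Arf, at 125 bp, and Atf3, a stress transcription factor, at 301 bp. In Y1, with 504 upstream summits, the count was 0 of 9, as in O1 and O2. Downstream summits were present at 5, 3, 2 and 7 genes of the list in O1, O2, Y1 and Y2, beside 14, 14.5, 4.85 and 42.7% of all eligible genes. Of 11 genes known for a divergent noncoding transcript, Cdkn1a and Pou3f3 had an upstream summit, again in Y2 alone, which is 18.2% of the list beside 17.5% of all eligible genes in Y2.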

How the data were processed

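Pol II ChIP-seq peak lists of 4 brain EC libraries were analysed (old WT Cre, n = 2; young EC-K4KO, n = 2). According to the methods, reads were trimmed, Bowtie2 placed them on mm10 and duplicates were taken out (Picard, SAMtools) before the authors called peaks in each library alone with MACS2, which per the file headers was version 2.2.7.1 without a control, at q of 0.01 and with all duplicates left in the input kept; the methods name another version. Whether duplicates were gone from that input was not checked here, and pileups depend on it. The deposited values are the pileup (a coverage signal in fragments), fold enrichment (the ratio of pileup to local background) and −log10 of the p-value and q-value; none was normalized between libraries. The deposited narrow peak and summit lists held the same values and were not used further.

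TSS were starts of protein-coding transcripts in the GENCODE M21 basic annotation (41422 distinct). Ties went to the downstream side. Densities used bases with no second gene's TSS within 1000 bp. Windows were read from GRCm38 and counted by 31-base words on the assembled chromosomes, and no peak passed the end of the 22 chromosomes compared. Libraries were compared by exact permutation, with Benjamini-Hochberg adjustment in each family, using scipy 1.17.1, pandas 2.3.3, numpy 2.4.6, samtools 1.23.1 and Python 3.11.15. Fragment counts set the depth, 22705175 to 65734178 per library, and the smallest called pileup was 7 to 13 fragments, which limits the precision of the low peaks. The steps were tested on simulated data.

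Genes named were those with an upstream summit in all 4 libraries by the weakest −log10 q (first 15), the first 5 per group found in both its libraries alone, and members of fixed lists; the other 16 genes of the 31 were added later. Alternatives were a stricter q, equal list lengths, other TSS and windows, autosomes alone, a minimum fold enrichment, peaks over TSS left out, a replicate block and leaving out each library. The members and lists were chosen with earlier results of these data known.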

Additional observations from a re-analysis of the deposited data

How the results depend on the processing

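The share, density, width and antisense noncoding results kept their direction under every alternative run. The difference in upstream share between groups ranged from 2.05 to 7.52 percentage points over the alternatives (exact permutation p 0.333 to 1), with both ends from leaving out a young EC-K4KO library. Taking same-numbered replicates as pairs, the replicate block gave the same 4.79 points with p = 0.5 (exact permutation within pairs), and the labels give no reason to pair them. The log2 density ratio ranged from -1.30 to -0.64, the width difference from -28.0 to -8.0 bp and the antisense noncoding difference from 2.61 to 4.14 points. The ratio of -0.64 set summits 100 to 500 bp upstream against those 0 to 1000 bp downstream.

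The fold enrichment difference, -0.014 in log2, changed sign at q of at most 1e-05 (0.0047), at equal list length (0.0086), with the 100 to 500 bp window (0.00098) and at a fold enrichment of at least 4 (0.0038); leaving out each library gave -0.033 to 0.014. No value differed from 0 beyond the spread.

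Counts of genes in both replicates were 193 for old WT Cre, 252 for young EC-K4KO and 31 in all 4. They were 86, 76 and 13 at q of at most 1e-05, where the order of the groups turned and the 13 were all repeated windows, 101, 126 and 15 at equal list length, and 113, 150 and 15 with the 100 to 500 bp window. Without repeated windows, an alternative chosen after seeing the data like the mean log2 fold enrichment, the count in all 4 was 16. With the outermost TSS of each gene, Gm11168, Ncoa4 and Tcf4 had an upstream summit in 0 libraries. Sfi1, Sox6 and Ms4a6d then had one in 1 library, AW822073 in 2, and Gm10717 and Epb41l1 in 3. Leaving out 1 library gave 37 to 113 genes in all remaining libraries: 80 without old WT Cre replicate 1, 67 without old WT Cre replicate 2, 113 without young EC-K4KO replicate 1 and 37 without young EC-K4KO replicate 2. The excess of GC at 100 to 249 bp over all TSS was 13.5 percentage points and became 15.5 with 100-bp windows. The other alternatives for these counts stayed within 1.5 times. The lowest called summits held 7 to 13 fragments, and the longest list came from the library with the fewest fragments; the cause was not tested.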
